A study of Mus musculus with 4 samples.

Results

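NIH-3T3 fibroblasts, an established mouse embryo line, were examined for imprinted genes that control growth. The genes chosen were Peg3, H19, Igf2, Igf2r, Meg3, Dlk1, Cdkn1c, Grb10, Plagl1 and Mest, 10 in all, against 20972 gene symbols named on the array. Every gene probe whose accession maps to 1 of these symbols was kept, on all 4 arrays. Probes were found for 8 of the 10 genes, 15 probes in 33 spots, while H19 and Meg3 matched no probe through the naming table and were not analysed here.

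The study asked how activators of chaperone-mediated autophagy, the import of single proteins into lysosomes, act on transcription. The series examined here holds a one-colour Agilent array for each of 4 groups. These were wild-type cells with no treatment, and wild-type cells kept for 24 h with AR7, CA39 or CA77, each at 20 µM. All cultures were the same line, grown with fetal bovine serum per the sample labels, while the general methods of the study name newborn calf serum. AR7, CA39 and CA77 are small molecules aimed at the retinoic acid receptor alpha, CA39 and CA77 being made from the AR7 scaffold. The compounds were dissolved in DMSO and the control label gives no treatment, so the solvent and a compound cannot be told apart in a difference that the 3 treated cultures share. The untreated array lay in slide row 1 and the treated arrays in slide row 2, and CA77 was read in scan 2 while the others were read in scan 1, so these too cannot be told apart from treatment. Each group has 1 array, so no test was possible and each difference below compares 2 arrays.

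Imprinted genes are expressed mainly from the copy inherited from 1 parent, under the control of regions that carry DNA methylation on only 1 parental copy, often set in the germ line. Many of them form a network that sets fetal growth: paternally expressed members such as Igf2 and Dlk1 tend to favour growth or hold cells undifferentiated, and maternally expressed members such as Igf2r, Cdkn1c and Grb10 tend to restrain it. Growing fibroblasts express several members of this network.

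Of the 15 probes, 6 from 5 genes were well above background on all 4 arrays in the scanner software's own test, and 6 were so on no array. The untreated array had 9 such probes, AR7 had 7, CA39 had 6 and CA77 had 7. Over all probes on the array the same share was 69.7% in untreated cells, 52.7% after AR7, 52.1% after CA39 and 61.4% after CA77, so the treated arrays measured fewer probes in general. The fibroblast markers fixed as a list were detected for 10 of 11 genes on untreated, AR7 and CA77 and for 11 on CA39.

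Differences are given on the log2 scale, treated minus untreated, after background correction and quantile normalization. A probe was compared when it was well above background on at least 1 of the 2 arrays, and past 2-fold when its difference was at least 1 in size. With AR7, 1 of 9 compared probes lay past 2-fold lower (Dlk1) and 0 lay past it higher. Over all probes compared, 1.29% lay lower and 2.19% higher, and the 504 lower probes behind the first share became 240 to 337 under other background corrections and scalings. With CA39 the count was 0 lower and 0 higher of 9, beside 1.38% and 3.77% of all probes. With CA77 it was 0 lower and 1 higher of 9 (1 of the 2 Peg3 probes), beside 0.834% and 2.63% of all probes. These CA77 shares depend on the background correction and the scaling: the 331 lower probes became 171 to 1057 and the 1044 higher probes 607 to 1627. In the deposited values without scaling between arrays 1 member, Dlk1 at -1.04, lay past 2-fold lower. The median over the probes measured on both arrays was -0.07 after AR7, -0.17 after CA39 and 0.00 after CA77, against -0.01, -0.03 and -0.02 for all probes. The account below therefore turns on single members.

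**Figure D1:**
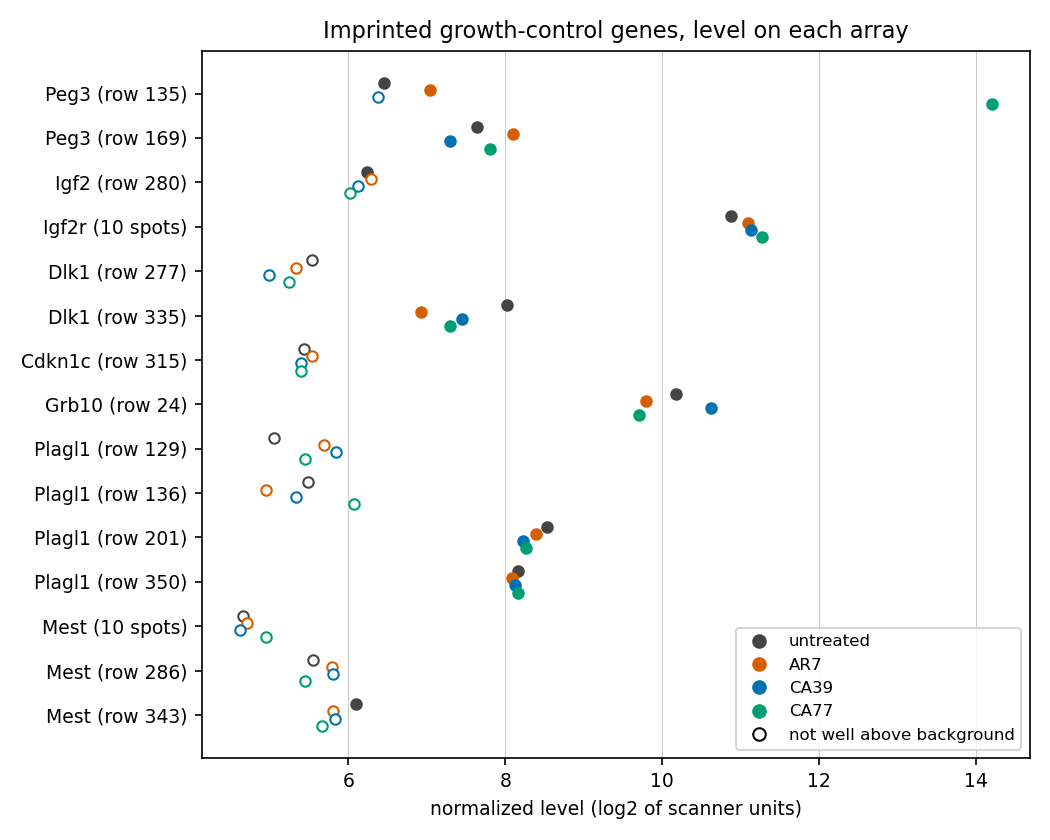
Normalized level (log2 of scanner units, horizontal axis) of each probe on the untreated, AR7, CA39 and CA77 arrays. Filled points were well above background and open points were not. Peg3 (row 135) on CA77, at 14.21, stands apart from its other 3 arrays, which lie between 6.37 and 7.04. Brightness also depends on the probe, so levels are compared along a line and not between lines.

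Dlk1 encodes a membrane protein related to Notch ligands that keeps preadipocytes and fibroblasts from turning into fat cells, and it is expressed from the paternal copy. Its probe at row 335, column 3 gave a net signal (background-subtracted scanner units) of 232.0 in untreated cells, 96.1 after AR7, 143.9 after CA39 and 113.1 after CA77. The untreated array was the highest and AR7 the lowest, and none of the treated values reached the untreated one.

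The normalized level of Dlk1 was lower by 2.12-fold with AR7, a log2 difference of -1.08 ± 0.14. The error is the SD of the difference between single spots of like brightness, from probes printed 10 times on each array, and it covers error within an array only. The log2 difference was -0.57 ± 0.14 with CA39 and -0.72 ± 0.14 with CA77. All 3 differences exceeded 2 of these SDs, but they share the 1 untreated array. Between compounds, Dlk1 was higher on CA39 than on AR7 by 0.51 ± 0.15 and higher on CA77 than on AR7 by 0.36 ± 0.15, whereas CA77 against CA39 gave -0.15 ± 0.13, within 2 SD. CA77 minus AR7 was 0.27 with an offset of 50 and 0.24 in the deposited values, where CA77 minus CA39 was -0.35. Which of these 2 comparisons exceeds 2 SD thus depends on the processing.

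The AR7 value of Dlk1 sits near the 2-fold limit and ran from -1.28 to -0.84 over the other settings that could move it. It was -0.99 after the median difference of the spots around it was subtracted and -0.84 with an offset of 50 in the background correction. It was -1.25 from the scanner software's processed signal, -1.28 with 75th percentile scaling and -1.27 in the deposited values. The spots within 2 rows and 4 columns of the Dlk1 spot, taken where well above background on either array, had a median difference of -0.06 after AR7, -0.27 after CA39 and -0.12 after CA77. The other Dlk1 probe, at row 277, column 10, was well above background on none of the 4 arrays, with net signals of 11.9 in untreated cells, -3.0 after AR7, -6.0 after CA39 and 6.7 after CA77. The Dlk1 result rests on 1 spot per array.

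Among 16937 named probes well above background on all arrays, those nearest to Dlk1 over the 3 differences (Euclidean distance) were Ptk7 at 0.17, Mindy2 at 0.19 and Adora2a at 0.20. Ptk7, a receptor-like protein of Wnt signalling, gave -0.94 after AR7, -0.49 after CA39 and -0.68 after CA77. The values of Mindy2, a deubiquitinating enzyme, were -1.01, -0.50 and -0.56, and those of Adora2a, an adenosine receptor, were -0.93, -0.70 and -0.77.

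The 250 bases before the RefSeq starts of Dlk1 and Peg3, the genes with a probe past 2-fold, are given 5′ to 3′ on the gene's strand with CG dinucleotides, the targets of DNA methylation, in capitals (build GRCm38.p6). Dlk1 is on the plus strand, at chr12:109452573-109452822, and Peg3 on the minus strand, at chr7:6730420-6730669. They show the CG sites next to each start. The arrays did not measure methylation.
Dlk1: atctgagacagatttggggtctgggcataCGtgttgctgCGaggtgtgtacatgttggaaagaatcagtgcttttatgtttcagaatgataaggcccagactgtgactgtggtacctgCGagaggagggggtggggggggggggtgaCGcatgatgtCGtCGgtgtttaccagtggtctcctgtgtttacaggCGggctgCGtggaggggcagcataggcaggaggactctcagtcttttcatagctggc
Peg3: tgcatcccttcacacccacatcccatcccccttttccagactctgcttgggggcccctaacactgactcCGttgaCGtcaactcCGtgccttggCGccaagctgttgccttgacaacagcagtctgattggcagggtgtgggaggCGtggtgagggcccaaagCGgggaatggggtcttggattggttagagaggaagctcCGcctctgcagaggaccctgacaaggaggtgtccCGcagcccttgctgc

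Both windows hold 8 CG dinucleotides, more than 57.0% of the 32817 windows of the same length in the table. The table held 15 windows for 8 of the 10 genes, and their CG counts ran from 0 to 40 with a median of 10, against a median of 6 over all windows. The palindrome GGGGCCCC, within the known binding preference of the member Plagl1, was searched on both strands and was present in the Peg3 window alone, beside 0.884% of all windows. AANATGGC, a core bound by YY1, was in 0 of the 15 windows and 3.9% of all. AGGTCA, a retinoic acid receptor binding core, was in 3 windows, of Igf2, Igf2r and Meg3, and 14.0% of all. Such letter matches are not measured binding.

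Peg3 is a paternally expressed zinc-finger protein that acts in growth, maternal behaviour and p53-dependent cell death. It has 2 probes and they disagreed on CA77. At row 135, column 129 the first probe gave a net signal of 54.8 in untreated cells, 93.6 after AR7, 33.6 after CA39 and 17378 after CA77, and the CA39 spot was not well above background. CA77 was far above the other 3 arrays at this spot.

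At row 169, column 33 the second probe gave 169.8 in untreated cells, 245.7 after AR7, 115.5 after CA39 and 161.4 after CA77, and was well above background on all arrays. Here AR7 was the highest and CA39 the lowest, and CA77 lay beside untreated.

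With CA77 the log2 difference at row 135 was 7.76, or 217-fold, which ranked 1 of 33276 probes measured on both arrays. It ran from 7.11 to 8.61 over the other settings that could move it. No spot error is given for it, since its 2 spots differ too much in brightness to be matched. At row 169 it was 0.17 ± 0.13, within 2 SD of 0 and of either sign under other scalings (-0.07 in the deposited values without scaling between arrays). The CA77 spot at row 135 was neither flagged nor saturated. It was 20.4 µm wide, narrower than all but 1.19% of the spots on that array, whose median width was 25.8 µm.

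The spots around row 135 were compared next, and those named here were picked after their values were seen. The nearest spot, at row 136, column 128, carries a probe for a region of chromosome 17 that has no gene name in the table, whereas Peg3 lies on chromosome 7. Its net signal was 45.0 in untreated cells, 45.0 after AR7, 24.5 after CA39 and 11853 after CA77, a difference of 7.56 with CA77, and its CA77 width was 20.1 µm. The third nearest, of the intestinal actin-binding protein Vil1, read 104.4 on CA77 and 23.7 on untreated, where it was not well above background, and was 19.1 µm wide on CA77. The second nearest, of the pheromone receptor Vmn1r226, was not well above background on CA77. The 5 spots next in distance, from the fourth to the eighth nearest, gave between -0.31 and 0.15.

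Adjacent spots with probes from different chromosomes thus read high together on CA77 and on no other array. A difference of at least 7 with CA77 was seen at 4 of 35663 spots measured on both arrays, and the Peg3 spot and its nearest neighbour are among them. Of the spots within 2 rows and 4 columns that were well above background on untreated or CA77, 2 of 28 lay past 2-fold higher (the nearest spot and that of Vil1), and the median difference was 0.04. Within 10 rows and 10 columns, 10 of 304 spots lay past 2-fold higher with CA77 (3.29%), 6 of 297 with AR7 (2.02%) and 8 of 297 with CA39 (2.69%), where a spot was taken if it was well above background on untreated or on the array of that compound. The part of the location in the row 135 value was not tested, and the high reading belongs to 1 of 2 Peg3 probes.

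**Figure D2:**
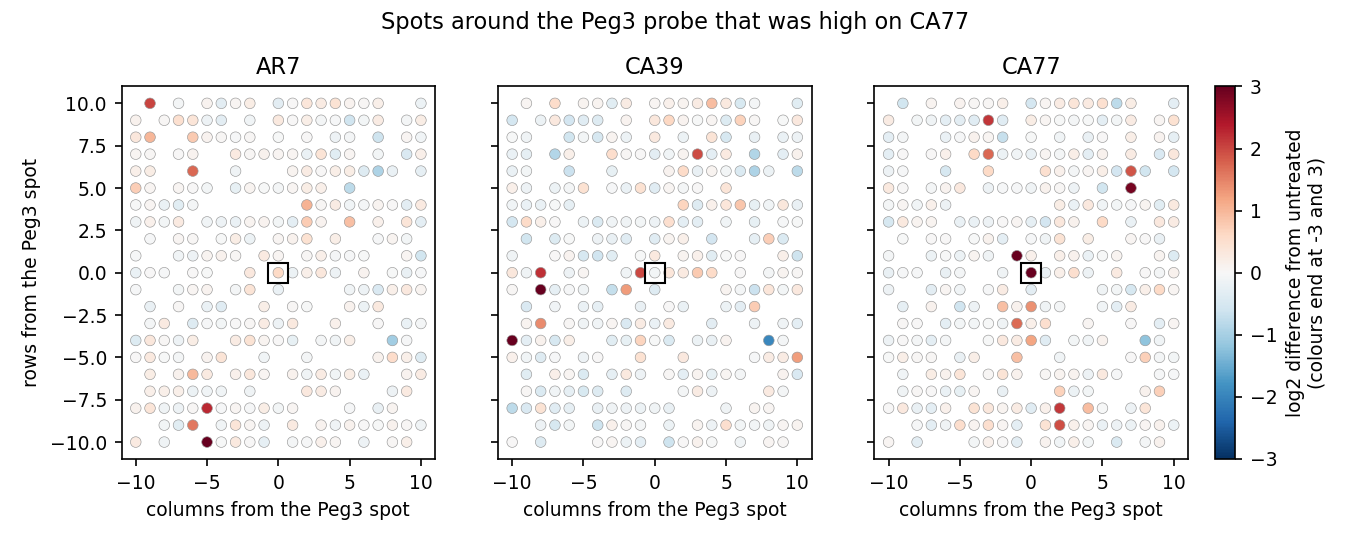
Log2 difference from untreated of each spot within 10 rows and 10 columns of the Peg3 probe at row 135, column 129 (square), for AR7, CA39 and CA77. Axes count rows and columns from that spot, colours end at -3 and 3, and each panel draws the spots well above background on untreated or on the array of that compound. On CA77 the Peg3 spot (7.76) and the spot 1 row and 1 column away (7.56) are both at the end of the scale.

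With AR7 both Peg3 probes read higher than untreated, by 0.59 ± 0.16 at row 135 and by 0.46 ± 0.14 at row 169, beyond 2 SD at each. With CA39 the difference at row 169 was -0.34 ± 0.14, and row 135 was not well above background. Between compounds, CA39 minus AR7 at row 169 was -0.80 ± 0.14, CA77 minus AR7 was -0.29 ± 0.14 and CA77 minus CA39 was 0.51 ± 0.13. At this row CA39 minus AR7 was past 2-fold under other scalings, -1.10 with 75th percentile scaling and -1.09 in the deposited values. In the deposited values CA77 minus AR7 was -0.61. At row 135 CA77 minus AR7 was 7.17, so that the 2 probes differ in the sign of this comparison.

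Igf2r encodes the cation-independent mannose-6-phosphate receptor, which carries acid hydrolases to lysosomes and clears Igf2 from the cell surface, and in mouse it is expressed from the maternal copy. Its probe was printed in 10 spots, all well above background on each array. The mean net signal was 1894 ± 128 (SD, 10 spots) in untreated cells, 2313 ± 200 after AR7, 2339 ± 96 after CA39 and 2216 ± 95 after CA77. The untreated spots ran from 1661 to 2043 and did not overlap with those of AR7 (2085 to 2617), CA39 (2153 to 2435) or CA77 (2061 to 2329), while the treated ranges overlapped with each other.

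Compared spot by spot, the normalized difference in Igf2r was 0.21 ± 0.07 (SD, 10 spots) after AR7, 0.26 ± 0.08 after CA39 and 0.38 ± 0.07 after CA77. It was above 0 at 10 of 10 spots with each compound, and the folds were 1.16, 1.20 and 1.30. These spots sample 1 hybridization per array and share 1 untreated array, so they say nothing of the spread between cultures. The order among the treated arrays depends on the scale: CA77 was highest after quantile normalization, by 0.17 over AR7 and 0.12 over CA39, but gave -0.06 and -0.08 in the deposited values without scaling between arrays.

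**Figure D3:**
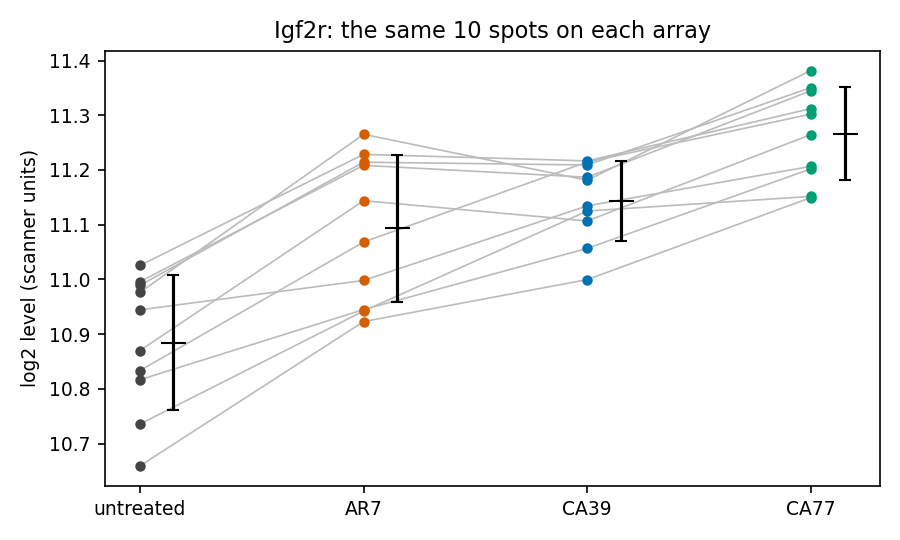
Normalized Igf2r level (log2 of scanner units) at the same 10 spots on each array, joined by grey lines, with the mean and SD over spots in black. Every spot read higher on each treated array than on untreated, with mean differences of 0.21, 0.26 and 0.38.

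Igf2 itself, the paternally expressed fetal growth factor that Igf2r clears, was close to background. The probe at row 280, column 150 gave net signals of 43.4 in untreated cells, 45.9 after AR7, 29.2 after CA39 and 27.8 after CA77. It was well above background on the untreated array alone, and no fold is given, because its untreated level was no higher than the 1st percentile of detected signal on the treated arrays. The arrays cannot show whether Igf2 differed between these cultures.

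Grb10 is an adaptor that binds the insulin and IGF1 receptors and damps their signal, expressed from the maternal copy outside the nervous system. Its probe at row 24, column 160 gave a net signal of 1114 in untreated cells, 964.8 after AR7, 1684 after CA39 and 743.6 after CA77. CA39 was above untreated, and AR7 and CA77 were below it.

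The log2 difference in Grb10 was -0.38 ± 0.08 after AR7, 0.45 ± 0.07 after CA39 and -0.47 ± 0.07 after CA77, each beyond 2 SD and each under 2-fold. CA39 exceeded AR7 by 0.83 ± 0.08, and CA77 minus CA39 was -0.92 ± 0.06, while CA77 minus AR7 was -0.09 ± 0.09. All 6 comparisons kept their sign under the 5 other settings that could move them, but CA77 minus AR7 grew to -0.18 from the processed signal, -0.20 with 75th percentile scaling and -0.38 in the deposited values. At the same dose and time, CA39 thus lay on the other side of untreated from AR7 and CA77 for this member.

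Some epithelial markers were also higher on CA39. Of 5 epithelial markers, 2 were detected on untreated, AR7 and CA77 and 3 on CA39, and their summed level was 435 in untreated cells, 459 after AR7, 1550 after CA39 and 361 after CA77. Krt8, a simple epithelial keratin, differed by 2.38 with CA39, and Epcam, an epithelial adhesion protein, was detected on CA39 alone. Cdh1 (E-cadherin) and Krt19 were not detected on any array. Krt18, another keratin, had net signals of 72.2 in untreated cells and 176.1 after CA39. Several fibroblast markers were higher on CA39 as well, with 4 of 13 compared probes past 2-fold higher, beside 3.77% of all probes. The fibroblast summed level was 987000 in untreated cells, 838000 after AR7, 1270000 after CA39 and 879000 after CA77. The part of either set of markers in the Grb10 value was not tested.

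Plagl1 is a paternally expressed zinc-finger transcription factor that slows the cell cycle and regulates other imprinted genes. It has 4 probes, of which 2 were measured on all arrays. At row 201, column 149 the net signal was 334.6 in untreated cells, 320.0 after AR7, 263.9 after CA39 and 233.8 after CA77, and at row 350, column 61 it was 250.5, 262.3, 257.4 and 213.2 in the same order. The first probe read highest on untreated, and the second read lowest on CA77 before scaling.

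Normalized, the probe at row 201 differed by -0.14 ± 0.12 after AR7, -0.30 ± 0.10 after CA39 and -0.27 ± 0.10 after CA77. At row 350 the values were -0.07 ± 0.13, -0.04 ± 0.11 and 0.00 ± 0.11, all within 2 SD of 0. The lower normalized reading with CA39 and CA77 was therefore seen at 1 of the 2 measured probes. In the deposited values without scaling between arrays, row 350 gave -0.23 with CA77, where the median of all measured probes was -0.20. The other probes, at rows 129 and 136, were well above background on no array, with net signals between -27.4 and 24.9.

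**Figure D4:**
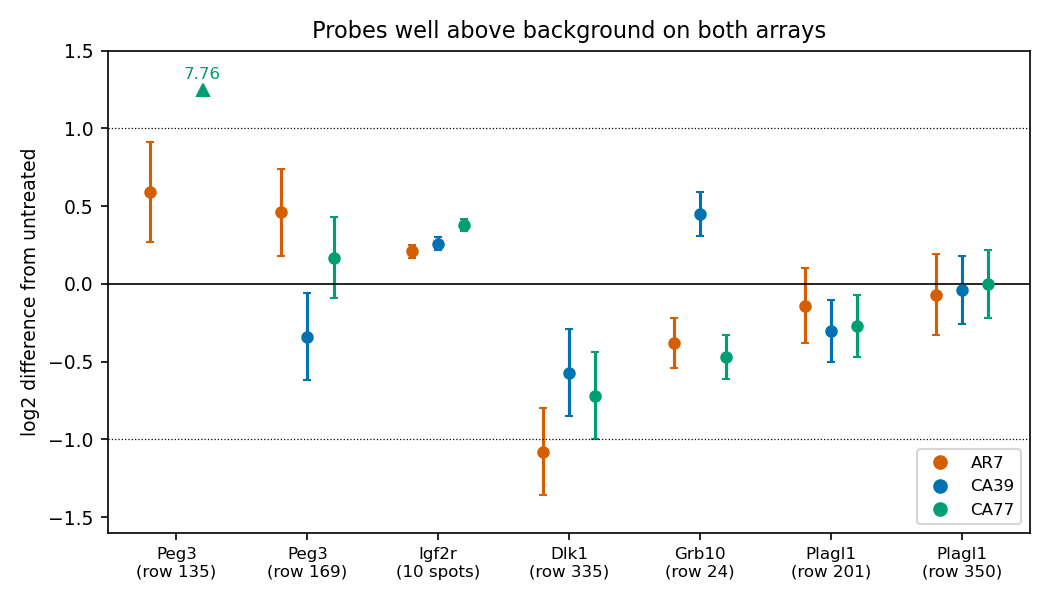
Log2 difference from untreated (vertical axis) of each probe measured on both arrays, for AR7, CA39 and CA77. Bars are 2 SD of repeated spots of like brightness, divided for Igf2r by the root of its 10 spots, and cover error within an array only. Dotted lines mark 2-fold, the triangle stands for the off-scale Peg3 (row 135) value of 7.76, Dlk1 lies below 0 and Igf2r above 0 with each compound, and Grb10 is above 0 with CA39 alone.

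Cdkn1c encodes p57, a maternally expressed inhibitor of cyclin-dependent kinases. Its probe at row 315, column 29 was well above background on no array, with net signals of 7.3 in untreated cells, 15.2 after AR7, 3.1 after CA39 and 7.7 after CA77. Cdkn1c was thus not measurable in these cultures with this probe.

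Mest is a paternally expressed protein of the alpha/beta-hydrolase fold. At row 343, column 31 its net signal was 31.8 in untreated cells, 19.8 after AR7, 15.8 after CA39 and 13.9 after CA77, well above background on untreated alone. The probe at row 286, column 111 read between 8.7 and 17.0 on the 4 arrays and was not well above background on any. The Mest probe printed in 10 spots was well above background at 0 spots, with mean net signals below 0 on each array (-6.1 on untreated). No fold is given for Mest, as its untreated level did not exceed the 1st percentile of detected signal on the treated arrays.

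Other genes of the same pathways were described from lists, by counts and medians beside those of all probes given above. Of 55 other imprinted genes, 52 had a probe. With AR7, 1 of 52 compared probes lay past 2-fold higher and 0 lower. With CA39, 2 of 53 lay higher and 1 lower, and with CA77, 2 of 54 lay higher and 0 lower. Their median measured differences were -0.04, 0.02 and -0.11.

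Dcn, a matrix proteoglycan that is imprinted in the mouse placenta, had the largest measured difference of that list, -5.69 with CA39, with net signals of 150361 in untreated cells, 205788 after AR7, 2927 after CA39 and 165554 after CA77. Ndn, a paternally expressed growth suppressor of the necdin family, was higher by 2.02 with CA39 and gave -0.76 with AR7 and -0.45 with CA77. Its net signal was 352.7 in untreated cells, 177.9 after AR7, 1374 after CA39 and 179.6 after CA77, so that Ndn and Grb10 each read highest on CA39.

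The remaining imprinted probes past 2-fold were each dim on the untreated array, and are named after their values were seen. Taking the 1st percentile of detected signal on an array as its lower limit, Rasgrf1, an exchange factor for Ras, was at least 5.61-fold higher with AR7. Kcnq1, a potassium channel subunit, was at least 2.77-fold higher with CA39 and at least 4.16-fold with CA77, and its AR7 spot, which read 380.9 against 1.3 on untreated, was left out as an outlier spot by the scanner software's mark. Ppp1r9a, an actin-binding neuronal protein, was at least 2.50-fold higher with CA77.

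Of 15 genes that set or keep imprints, all had a probe, and the 20 probes were measured on every array. Their median difference was -0.01 after AR7, -0.31 after CA39 and -0.01 after CA77. Dnmt3a, a methyltransferase that sets germline imprints, gave net signals of 741.7 in untreated cells, 317.0 after AR7, 372.7 after CA39 and 309.9 after CA77, and differences of -1.20, -0.91 and -0.88. Dnmt3a and Dlk1 were both lower on every treated array, against the same untreated array. Dppa3, which protects imprints in the early embryo, differed by -1.08 with CA39, 0.04 with AR7 and 0.08 with CA77.

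Of 20 genes of IGF signalling, 0 of 27 compared probes lay past 2-fold higher and 1 lower with AR7, 4 of 28 higher and 0 lower with CA39, and 0 of 27 higher and 1 lower with CA77. The 4 higher with CA39 were probes of Irs1, Igfbp4 and Igf1 (rows 80 and 285), beside 3.77% of all probes past 2-fold higher. The median measured differences were -0.07, 0.04 and 0.04. Several epithelial and fibroblast markers, described beside Grb10, were higher on the same CA39 array. Their part in these values and in the other list values on CA39 was not tested. Irs1, the substrate that links the IGF1 receptor to PI3 kinase, differed by 1.21 with CA39 (0.90 at its second probe), and Igfbp4, which binds IGFs outside the cell, by 1.09. Igf1 has 4 probes. The probe at row 285 gave net signals of 148.0 in untreated cells, 22.4 after AR7, 395.2 after CA39 and 17.2 after CA77, a difference of 1.70 with CA39, whereas the probe at row 42 gave -0.16. The probe at row 80 was at least 6.74-fold higher with CA39, from a net signal of 26.1 on untreated to 369.8. The spots around it were not compared. The probe at row 137 was detected on no array. The lower readings at row 285 with AR7 and CA77 count as past 2-fold against the lowest detected signal, but were at least 1.14-fold and at least 1.69-fold against the 1st percentile.

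None of the 14 brakes and partners of the cell cycle had a probe past 2-fold with any compound, 0 of 18 compared probes each, and their medians were 0.05, -0.02 and -0.06. Among 14 Notch and fat-cell genes, the functional neighbours of Dlk1, 0 of 15 compared probes lay past 2-fold with AR7 or CA77, and 1 lay higher and 2 lower with CA39. Their medians were -0.17, 0.01 and -0.15. Fabp4, a lipid-binding protein of fat cells, differed by -1.59 with CA39, -0.75 with AR7 and -0.42 with CA77. Dlk2, the close relative of Dlk1, differed by -1.12 with CA39 at row 336 and by -0.93 at row 43, and gave -0.17 with AR7 and -0.15 with CA77 at row 336. Cebpd, an early factor of fat-cell differentiation, gave 1.03 with CA39. In this list the probes past 2-fold were on CA39. Dlk1 itself lay nearest to untreated on that treated array, but its normalized difference between CA77 and CA39 was within 2 SD.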

How the data were processed

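Total RNA was labelled with Cy3 by the authors, hybridized to 1 Agilent slide and quantified with Feature Extraction 10.7.3.1. In the deposited scanner files there are intensity values per spot, with local background and quality marks, for 62976 spots per array, of which 59305 carry gene probes. The deposited series table equalled the background-subtracted intensity at all 62976 spots, and its scale between arrays is unadjusted. The submitters' processing notes name oligo and RMA, which were followed as far as spots allow. Median intensity and background were corrected with normexp (offset 0, all spots, limma 3.58.1, R 4.3.3), controls were dropped, and arrays were quantile normalized and put on the log2 scale. Flagged spots (142 to 328 per array) were left out, no spot was saturated (0 on each array), and spots of a probe were averaged.

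A probe was taken as detected where the scanner software marked more than 50% of its spots as well above background. A dim side was raised to the lowest detected signal of its array (log2 5.15, 3.81, 6.20 and 5.69 on untreated, AR7, CA39 and CA77), and folds printed as "at least" use the 1st percentile (5.88, 6.82, 6.87 and 6.26), a choice made with the values known. Accessions were matched without versions to RefSeq (GRCm38.p6), naming 27656 of 55681 probes. The array design cites another build, so no probe position is given. Errors come from 399 probes printed 10 times, within a log2 distance of 1 in brightness. Comparisons were 1 array against 1 array without a test, with up to 10 alternative settings. The number of arrays limits the precision.

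Every member probe was named, together with list probes past 2-fold that were measured on both arrays and, for a member past 2-fold and detected on all arrays, the 3 nearest named genes. The members and lists were chosen with earlier results of these data known. Fibroblast, epithelial, endothelial, blood, skeletal muscle and adipocyte markers were further lists. The call rule was tested on simulated data. In it only bright probes were changed, each past 2-fold, with the same detection on every array. It does not cover dim members or single deviating spots.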

Additional observations from a re-analysis of the deposited data

How the results depend on the processing

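The member differences, counts and medians were recomputed under 10 other settings and the list medians under 2, while single list genes were not. For single member probes, 5 settings left each value as it was. Under the other 5, 61 of 195 values moved by their spot error or more and 134 by less. Counts and medians moved in these cases. With an offset of 50, and with the median of the surrounding spots subtracted, 0 probes lay past 2-fold lower with AR7. In the deposited table without scaling, 1 probe lay past 2-fold lower with CA77, the member median was 0.07 with AR7 and -0.23 with CA77, and the median of CA77 minus AR7 was -0.30 and of CA77 minus CA39 -0.22. With no floor the member median was 0.05 with AR7. The median of CA77 minus AR7 was -0.09 with no floor and -0.09 with the positive and significant mark. At 1.5-fold, 1 probe lay higher with AR7 and 1 lower with CA77.

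With 75th percentile scaling the list medians were -0.08 with AR7 for genes that keep imprints, -0.03 with CA39 for IGF signalling, -0.12 with CA39 for cell cycle genes, and -0.12 with CA39 and -0.23 with CA77 for Notch and fat-cell genes. With the surrounding median subtracted they were -0.24 with CA39 for genes that keep imprints, 0.00 with AR7 for IGF signalling and 0.04 with CA77 for cell cycle genes. The cause of these moves was not tested. Over all probes, 504 lay past 2-fold lower with AR7, against 240 with an offset of 50, 316 from the processed signal, 337 with 75th percentile scaling and 251 in the deposited table, where 1122 lay higher against 859. With CA39, 541 lay lower, against 844 with 75th percentile scaling. With CA77, an offset of 50 gave 607 higher and 171 lower, the processed signal 1627 and 625, and 75th percentile scaling 1284 and 718. The deposited table shifted the CA77 median to -0.20, and then 1108 probes lay past 2-fold higher and 1057 lower, against 1044 and 331.

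No paired analysis was possible because each group has 1 array, and leaving an array out was not an option. Dim probes limit what can be said of Igf2, Cdkn1c and Mest.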

Other observations

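The other marker lists were checked in the same way. Endothelial markers were detected for 3 of 4 genes on each array, with a summed level between 3860 on CA77 and 4370 on untreated. Of 5 blood markers 4 had a probe, and all 4 were detected on untreated and 1 to 3 on the treated arrays. Of 4 skeletal muscle markers, 4 were detected on untreated and 2 on each treated array. Of 4 adipocyte markers 3 were detected on untreated, 1 on AR7 and CA39 and 2 on CA77. Over all probes the treated arrays also had a lower detected share, 52.1% to 61.4% against 69.7%. Its part in these counts was not tested. The summed level of blood markers ranged from 1360 (CA77) to 1650 (untreated). For muscle markers it ranged from 671 (CA39) to 1010 (CA77), and for adipocyte markers from 1000 (CA39) to 2670 (untreated). Among fibroblast genes, Col1a1, a chain of type I collagen, differed by -1.04 for AR7, 1.06 for CA39 and -0.83 for CA77. Fn1, which encodes fibronectin, differed by 1.47 with CA39 and Pdgfra, a growth factor receptor, by 1.19. Further markers were dim on untreated and are named after their values were seen: the receptor Pdgfrb was at least 7.48-fold higher with CA39 and the epithelial adhesion protein Epcam at least 3.14-fold. The spots around the probes of Pdgfrb and Epcam were not compared.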
